A study of Arabidopsis thaliana with 12 samples.

Results

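The probe sets described here were higher in sdg8hub2 double mutant seedlings of Arabidopsis thaliana than in wild type, while neither the sdg8 nor the hub2 single mutant differed from wild type by as much as 0.5 on the log2 scale. They were chosen by their measured values. The sdg8hub2 mean had to lie at least 1 log2 unit (2-fold) above the wild-type mean and to reach a log2 signal of 7, both single mutant means had to lie less than 0.5 from wild type, and all 3 sdg8hub2 arrays had to lie above the other 9. Of 22746 probe sets on the array, with the manufacturer's controls left out, 44 met the rule, after the genes QQS and AT2G04070 had been set aside by name. The choice used every genotype mean, so the levels and differences of these 44 are a description and carry no test.

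Expression was measured on 12 Affymetrix arrays, 3 for each of the 4 genotypes wild type, sdg8, hub2 and sdg8hub2, all in ecotype Columbia. Whole seedlings were harvested at 6 days after growth at 22 °C in 16 h of light and 8 h of dark, with no further treatment. Per the labels the arrays of a genotype are biological replicates grown independently. The labels name neither the mutant alleles nor the number of plants in a sample.

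SDG8 encodes a methyltransferase that acts on lysine 36 of histone H3, and HUB2 encodes a RING-type ligase that works with its partner HUB1 to attach a single ubiquitin to histone H2B. Both marks lie over the bodies of transcribed genes and are associated with transcript elongation, and both enzymes are known for their part in flowering time.

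A value here is a log2 signal, the log2 of the deposited intensity after intensities under 16 were raised to 16, so that 4 is the lowest possible value. Of the 44 members, 28 carry 1 gene name, 1 carries several (AT1G53890 and AT1G53870) and 15 carry none in the annotation used. The named members are given by role below, as far as the role is known, in groups made after the values were seen.

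The members rose by 1.00 to 3.09 on the log2 scale in sdg8hub2, with a median of 1.23, or 2.35-fold. Over all probe sets the median difference between sdg8hub2 and wild type was -0.02. Only 2 members lay at least 2 log2 units above wild type, 11 lay between 1.5 and 2, and 31 lay under 1.5. Wild-type means ran from 4.19 to 12.62, with 19 members under 7, 17 from 7 to 10 and 8 at 10 or higher, so the set holds dim as well as very bright transcripts. In whole seedlings a raised signal from more cells of a type cannot be told apart from one due to more RNA per cell.

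**Figure D1:**
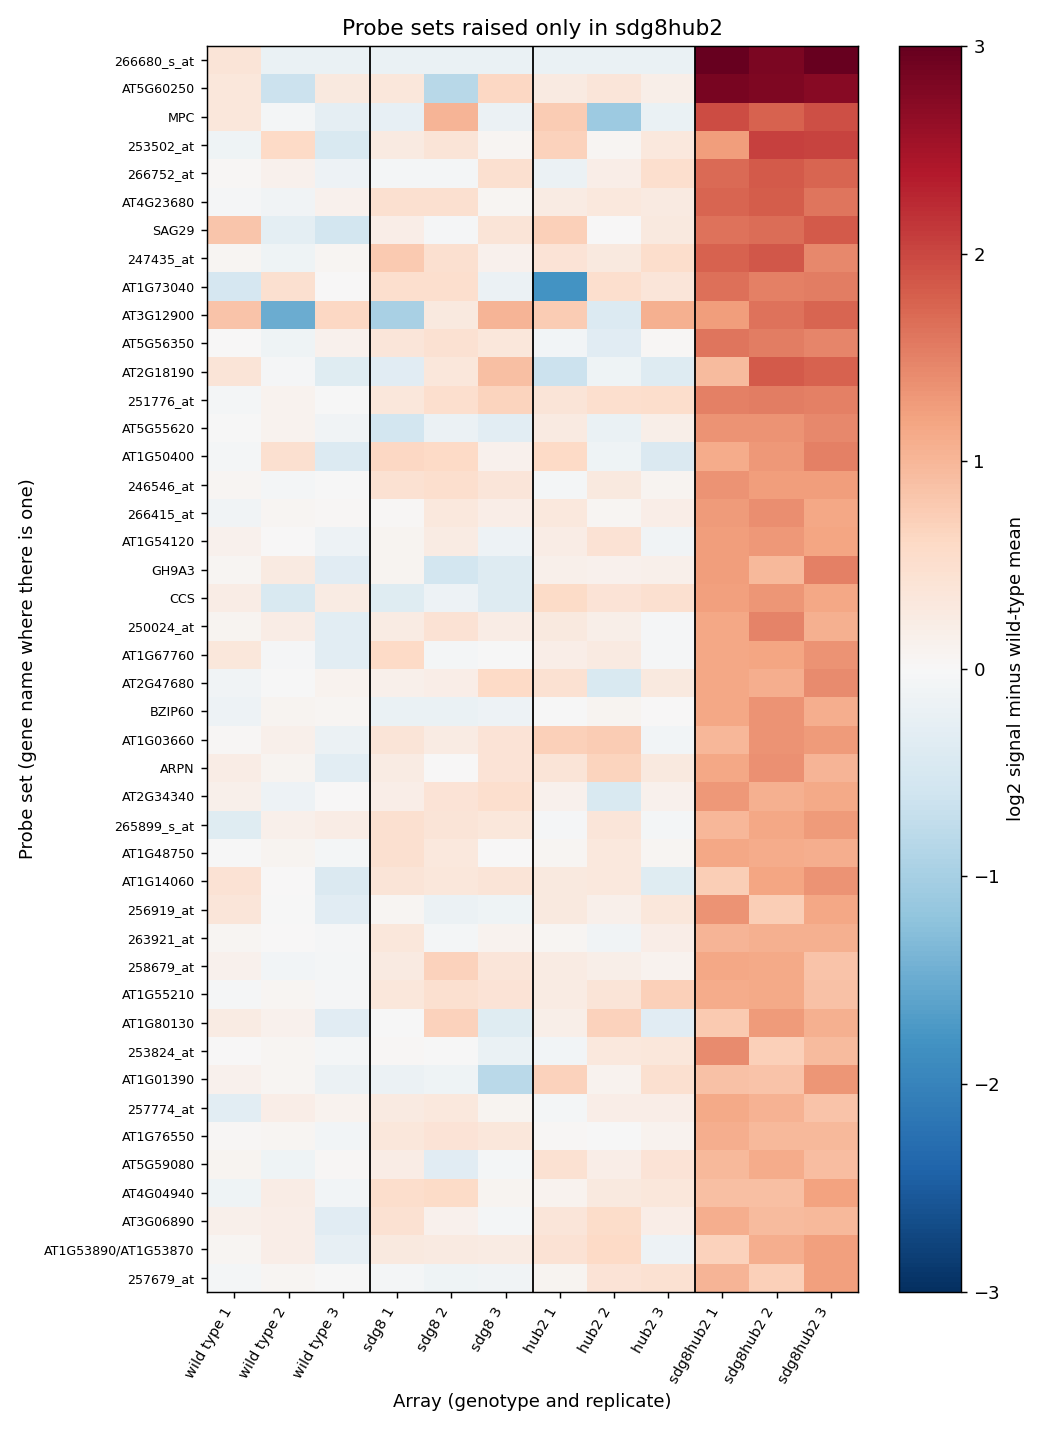
Log2 signal minus the wild-type mean (colour, log2 units, capped at 3) of the 44 members (rows, in order of the sdg8hub2 difference) on each of the 12 arrays (columns, by genotype and replicate). The 3 sdg8hub2 columns are red in every row, as the rule requires, and the single mutant columns are mostly pale, with medians over the members of 0.11 to 0.30 above wild type.

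Among regulators, AT5G60250, which encodes a RING-type zinc finger protein, had the largest difference of the named members. Its log2 signal was 5.51, 4.51 and 5.46 in wild type, 5.49, 4.32 and 5.77 in sdg8, 5.42, 5.53 and 5.34 in hub2, and 8.01, 7.95 and 7.89 in sdg8hub2. The double mutant mean of 7.95 ± 0.06 (SD, n = 3) lay 2.79 above the wild-type mean of 5.16 ± 0.56, and its lowest array lay 2.13 above the highest of the other 9.

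BZIP60 encodes the transcription factor that acts in the unfolded protein response of the endoplasmic reticulum. It stood at 9.69, 9.92 and 9.90 in wild type, 9.65, 9.63 and 9.68 in sdg8, 9.82, 9.93 and 9.85 in hub2, and 11.01, 11.18 and 10.93 in sdg8hub2. The 9 arrays of the other genotypes spanned a narrow band, and the double mutant lay 1.20 above wild type with single mutant differences of -0.19 and 0.03. Of the 5 measured genes of the list for the unfolded protein response, BZIP60 is the member chosen here, and the other 4 did not pass the test against wild type. Over all probe sets tested, 8.26% were called higher and 10.8% lower, so nothing is read from the lack of calls. The calreticulin gene CRT1b had a difference of -0.19, the protein disulfide isomerase gene PDIL5-1 -0.13 and the co-chaperone gene ATERDJ3B 0.18, and BZIP28, a related membrane-bound factor named after its value was seen, had -0.10. The median over the 5 was -0.10, beside -0.05 over all 18196 probe sets tested.

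Carbon metabolism and sugar transport had 3 named members. SAG29, also called SWEET15, encodes a sugar exporter that rises in senescent leaves. Its signal was 6.95, 5.83 and 5.58 in wild type, 6.32, 6.08 and 6.50 in sdg8, 6.84, 6.13 and 6.42 in hub2, and 7.74, 7.79 and 7.97 in sdg8hub2. Wild type was spread widely, with an SD of 0.73, and its replicate 1 was the highest array outside the double mutant. SAG101, the other measured gene of the senescence list, did not pass the test, with a difference of 0.33. Nothing is read about senescence genes from this single gene.

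AT5G56350 encodes a member of the pyruvate kinase family, which acts at the last step of glycolysis. It stood at 10.30, 10.14 and 10.40 in wild type, 10.65, 10.73 and 10.62 in sdg8, 10.19, 9.95 and 10.31 in hub2, and 11.88, 11.82 and 11.75 in sdg8hub2. The double mutant mean was 11.82 ± 0.06 (SD, n = 3), 2.91-fold the wild-type signal, with a gap of 1.02 to the highest other array. The sdg8 arrays lay above all wild-type and hub2 arrays, by a mean difference of 0.39 from wild type. AT1G76550, a member of the phosphofructokinase family, had 9.41, 9.42 and 9.28 in wild type, 9.71, 9.78 and 9.70 in sdg8, 9.40, 9.35 and 9.47 in hub2, and 10.46, 10.34 and 10.34 in sdg8hub2. Its difference was 1.01, and here too all sdg8 arrays lay above wild type and hub2.

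Proteins of mitochondria and ATP-driven machines were represented by AT1G50400 and AT2G18190. AT1G50400, a gene of the eukaryotic porin family, had 6.22, 6.78 and 5.87 in wild type, 6.91, 6.88 and 6.43 in sdg8, 6.89, 6.15 and 5.86 in hub2, and 7.41, 7.58 and 7.81 in sdg8hub2. AT2G18190, which encodes an AAA-type ATPase, had 6.42, 5.99 and 5.67 in wild type, 5.68, 6.38 and 6.93 in sdg8, 5.38, 5.91 and 5.64 in hub2, and 6.97, 7.88 and 7.79 in sdg8hub2. The latter is the member with the smallest separation: its lowest double mutant array exceeded sdg8 replicate 3 by 0.04. Of the 4 measured genes of the mitochondrial stress list, none is a member, and NDB2, NDB3 and NDB4, which encode alternative NAD(P)H dehydrogenases, rose (limma adjusted p = 0.01, 0.000336 and 9.27e-11), while NDB1 had a difference of -0.31, so that 75.0% were called higher beside 8.26% of all probe sets tested. NDB3 had a sdg8hub2 difference of 2.26 and missed the rule through its hub2 mean, 0.66 above wild type. NDB4 was also called higher in sdg8, by 2.38 (limma adjusted p = 1.96e-05), and lay 1.04 above wild type in hub2, not called. Wild type replicate 2 of NDB3 and wild type replicates 1 and 2 of NDB4 were at the floor of 4. The list, found by gene name, held only NDB genes, so its share stands for that family alone.

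Lipid-related and copper proteins formed a group of 4. AT4G23680, of the polyketide cyclase and lipid transport superfamily, had 10.21, 10.14 and 10.39 in wild type, 10.74, 10.72 and 10.31 in sdg8, 10.50, 10.57 and 10.52 in hub2, and 11.99, 12.06 and 11.86 in sdg8hub2. It had the highest sdg8hub2 mean of the named members, and its difference was 1.72. AT1G48750, a lipid transfer protein gene, had 10.46, 10.56 and 10.43 in wild type, 10.96, 10.80 and 10.48 in sdg8, 10.54, 10.79 and 10.54 in hub2, and 11.65, 11.60 and 11.56 in sdg8hub2. Its 3 double mutant arrays differed by less than 0.1, against a rise of 1.12. CCS, the chaperone that delivers copper to superoxide dismutase, had 8.92, 8.24 and 8.94 in wild type, 8.34, 8.54 and 8.31 in sdg8, 9.28, 9.12 and 9.17 in hub2, and 9.92, 10.02 and 9.87 in sdg8hub2, a difference of 1.24. ARPN, which encodes the copper protein plantacyanin, rose by 1.19 from 7.95 ± 0.29 to 9.14 ± 0.18 (SD, n = 3). Both had hub2 means close to the limit of 0.5, at 0.49 and 0.45 above wild type, so for these genes the label of an unchanged hub2 holds narrowly.

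Genes of the cell wall, lectins and secondary metabolism had 5 named members. GH9A3, also called KOR3, encodes an endoglucanase of the KORRIGAN family. It had 6.63, 6.82 and 6.22 in wild type, 6.64, 6.01 and 6.17 in sdg8, 6.71, 6.68 and 6.71 in hub2, and 7.82, 7.53 and 8.07 in sdg8hub2. The sdg8 mean lay 0.28 below wild type, opposite to the double mutant. AT1G73040, a gene of the mannose-binding lectin superfamily, had 5.29, 6.29 and 5.82 in wild type, 6.31, 6.30 and 5.63 in sdg8, the floor of 4, 6.31 and 6.17 in hub2, and 7.46, 7.31 and 7.34 in sdg8hub2. Its hub2 replicate 1 was at the floor, so its hub2 mean rests on unequal arrays.

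AT3G12900 encodes scopoletin 8-hydroxylase, which makes a coumarin secreted by iron-deficient roots. It had 6.51, 4.17 and 6.29 in wild type, 4.68, 5.95 and 6.69 in sdg8, 6.43, 5.24 and 6.72 in hub2, and 6.92, 7.30 and 7.41 in sdg8hub2. The wild-type SD of 1.30 was the highest among the members, and without wild type replicate 2 the difference of 1.56 was 0.81, under the limit of the rule. AT1G55210, a dirigent family gene, had 9.58, 9.69 and 9.59 in wild type, 9.95, 10.09 and 10.02 in sdg8, 9.86, 10 and 10.33 in hub2, and 10.73, 10.76 and 10.49 in sdg8hub2. Both single mutants lay above wild type on all 3 arrays there, and their differences summed to 0.84 beside 1.04 in the double mutant. AT1G01390, of the UDP-glycosyltransferase superfamily, rose by 1.02 and was lowest in sdg8, 0.37 below wild type. Of 42 tested genes on the list for that superfamily, made from gene names and without AT1G01390, 1 rose and 6 fell, or 2.38% and 14.3%, beside 8.26% and 10.8% of all probe sets tested. UGT73C1 had a difference of 1.73 (limma adjusted p = 5e-05) and UGT76B1 one of -1.36 (limma adjusted p = 4.69e-05), UGT71C2 fell by 0.86 (limma adjusted p = 0.00754), UGT76E2 had 1.25 without passing (limma adjusted p = 0.114), and the list median was -0.05, the same as over all probe sets tested. UGT71C2 was also called lower in sdg8, at -0.81, while UGT73C1 and UGT76B1 were called in neither single mutant.

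RNA-related members were MPC, AT2G47680 and AT4G04940. MPC, named for its likeness to the C-terminal part of poly(A)-binding proteins and for its expression from the maternal genome, had 5.48, 5.09 and 4.88 in wild type, 4.91, 6.17 and 4.98 in sdg8, 5.90, 4.06 and 4.95 in hub2, and 7.11, 6.93 and 7.08 in sdg8hub2. Its double mutant mean of 7.04 only just reached the level of 7 that the rule demands. AT2G47680, a zinc finger helicase gene, rose by 1.23 from 6.32 ± 0.11 to 7.55 ± 0.16, and AT4G04940, which encodes a WD-40 repeat protein, rose by 1.01 from 6.84 ± 0.19 to 7.85 ± 0.17 (SD, n = 3).

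Several members have no role stated here. AT5G55620 had 9.85, 9.97 and 9.76 in wild type, 9.30, 9.69 and 9.55 in sdg8, 10.12, 9.67 and 10.03 in hub2, and 11.21, 11.20 and 11.29 in sdg8hub2. It joins a double mutant rise of 1.37 with an sdg8 mean 0.35 below wild type. AT1G54120 had 8.90, 8.80 and 8.62 in wild type, 8.87, 9.03 and 8.63 in sdg8, 9.01, 9.21 and 8.67 in hub2, and 10.03, 10.09 and 9.97 in sdg8hub2. Here wild type, sdg8 and hub2 overlapped, and all lay below the double mutant, whose difference was 1.26. AT1G67760, AT1G03660, AT2G34340, AT1G14060, AT1G80130, AT5G59080 and AT3G06890 rose by 1.23, 1.20, 1.16, 1.08, 1.03, 1.01 and 1.00.

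**Figure D2:**
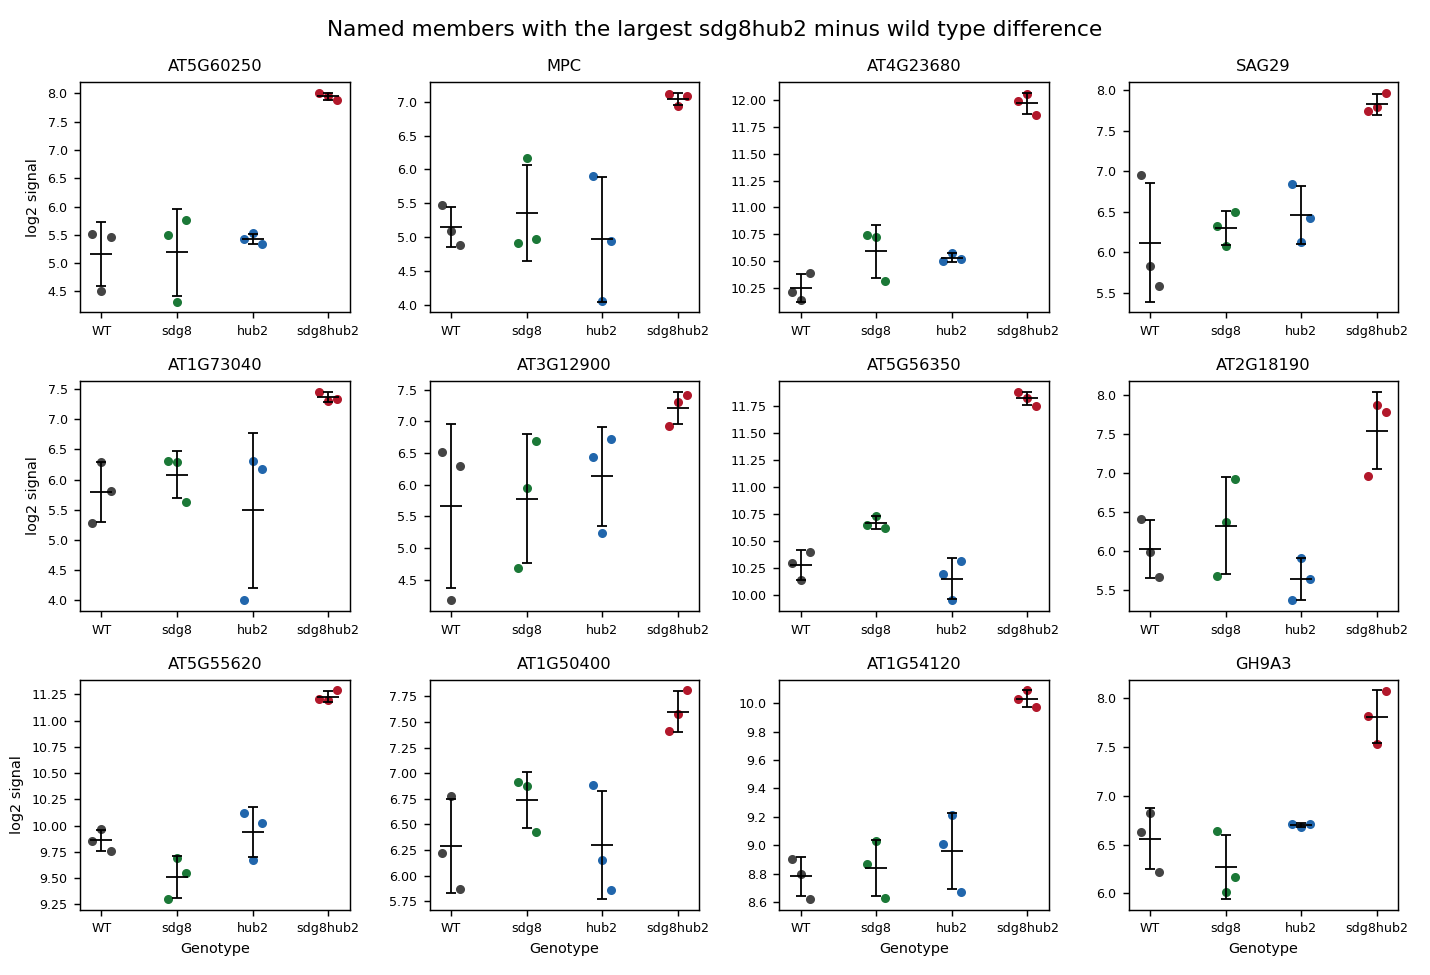
Log2 signal (vertical axis, scaled per panel) on each array for the 12 named members with the largest difference between sdg8hub2 and wild type, by genotype (WT, wild type), with points for the 3 arrays and bars for mean and SD. AT5G60250, AT4G23680, AT5G56350 and AT5G55620 show tight double mutant arrays far from the rest, while AT3G12900 and AT2G18190 come within 0.21 and 0.04 of another array.

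The 15 members without a gene name included the largest difference and the brightest signals. The probe set 266680_s_at lay at the floor of 4 on 8 of the other 9 arrays, at 4.57 on wild type replicate 1, and at 7.28, 7.02 and 7.53 in sdg8hub2. Its difference of 3.09 depends on the floor, and on the scale of log2(intensity + 64) it was 1.54. The probe set 253502_at had 6.06, 6.77 and 5.72 in wild type, 6.44, 6.57 and 6.24 in sdg8, 6.86, 6.23 and 6.50 in hub2, and 7.44, 8.24 and 8.21 in sdg8hub2, a difference of 1.78. The probe set 266752_at had 8.05, 8.14 and 7.87 in wild type, 7.97, 7.95 and 8.49 in sdg8, 7.84, 8.21 and 8.53 in hub2, and 9.71, 9.87 and 9.77 in sdg8hub2, a difference of 1.77. In both the other genotypes overlapped, and the gap to the double mutant was wider for 266752_at, 1.19 beside 0.58. The probe set 247435_at had 7.18, 7.01 and 7.20 in wild type, 7.91, 7.61 and 7.26 in sdg8, 7.54, 7.42 and 7.65 in hub2, and 8.91, 9.0 and 8.57 in sdg8hub2, a difference of 1.70. The probe set 251776_at had 10.79, 10.96 and 10.84 in wild type, 11.19, 11.36 and 11.53 in sdg8, 11.24, 11.36 and 11.38 in hub2, and 12.38, 12.40 and 12.37 in sdg8hub2, a difference of 1.52. In these both single mutants lay above wild type on every array, for 251776_at by means of 0.50 (just under the limit) and 0.46. The brightest member, 266415_at, went from 12.62 to 13.89. Of the 44 probe sets, 3 are of the types that can cross-hybridise, among them 266680_s_at.

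The wild-type level bears on how far these differences can be read. On the log2(intensity + 64) scale, which weighs dim signals less, the differences ran from 0.60 to 1.67 with a median of 0.95, and 19 of 44 reached 1. AT4G23680 had the largest value on this scale, 1.67, followed by AT5G60250 at 1.63. MPC was at 0.97, AT1G73040 at 0.92 and AT3G12900 at 0.80. The bright AT5G56350 was at 1.49, close to its log2 difference of 1.54.

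The rule bounds the single mutants but does not fix their sign. The sdg8 mean lay above wild type for 34 of the 44 members and the hub2 mean for 38, both for 29, and both below for 1, 266680_s_at. The median single difference was 0.23 in sdg8 and 0.18 in hub2. All these differences share the same wild-type arrays, and low wild-type values favour a probe set under the rule, so the lean to the positive side is no independent result. The highest array outside the double mutant was an sdg8 array for 21 members, a hub2 array for 18 and a wild-type array for 5.

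For 11 members both single mutants lay within 0.25 of wild type, and 5 of these have a gene name: MPC, AT1G54120, AT1G67760, BZIP60 and AT1G80130. Summed over both single mutants, the differences had a median of 0.36, beside 1.23 in the double mutant. In 9 members the sum reached at least 0.5 of the double mutant difference, with AT1G55210, AT1G03660 and 251776_at among those with the highest sums, at 0.84, 0.81 and 0.96. In 6 members the sum was at or below 0, among them BZIP60 at -0.16, GH9A3 at -0.14 and AT5G55620 at -0.27. The difference beyond the sum ran from 0.20 to 3.47 with a median of 0.87, and it reached 1 in 14 members. The limits of the rule make this difference positive in every member, so its sign is no result. In the fit across all probe sets, 22 of the 44 had a positive interaction call and all 44 were called higher in sdg8hub2 than in wild type (limma, adjusted p under 0.05), beside 3.23% and 8.26% of all 18196 probe sets tested. The rule used these contrasts, and nothing is read from either count. All 44 passed the filter on dim signals, but its mean signal includes the sdg8hub2 arrays, where the members were chosen to be high. Among them, 266680_s_at had means of 4.19 in wild type and 4.0 in each single mutant. It passed only through its sdg8hub2 mean of 7.28. Nothing is read from the passing of this filter.

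**Figure D3:**
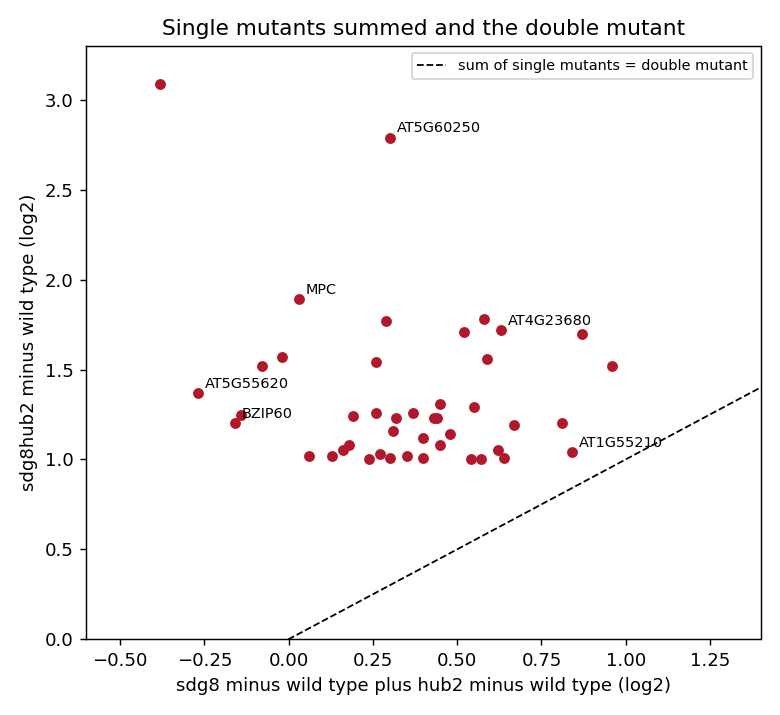
The sdg8hub2 minus wild type difference (vertical axis, log2) against the sum of both single mutant differences (horizontal axis, log2) for the 44 members, 1 point each, with a dashed line where they would be equal. Every member lies above the line, as the rule requires, from 0.20 for AT1G55210 to 3.47 for 266680_s_at.

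The 44 are a minority of the probe sets raised in the double mutant. With only the conditions that sdg8hub2 exceed wild type by at least 1, reach a mean of 7 and have its 3 arrays above those of wild type, 181 probe sets were found, of which the members are 24.3%. In 70 of the 181 sdg8 alone was raised by at least 0.5, in 13 hub2 alone, and in 37 both, while 15 had a single mutant at or below -0.5. The remaining 46 had both single mutants within 0.5, and 2 of these failed because a single mutant array overlapped the double mutant. Over all probe sets, 3.79% had the 3 sdg8hub2 arrays above the other 9. The same rule found 10 probe sets raised only in sdg8 and 5 raised only in hub2, and its mirror image found 45 lowered only in sdg8hub2. These counts were not tested against each other.

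**Figure D4:**
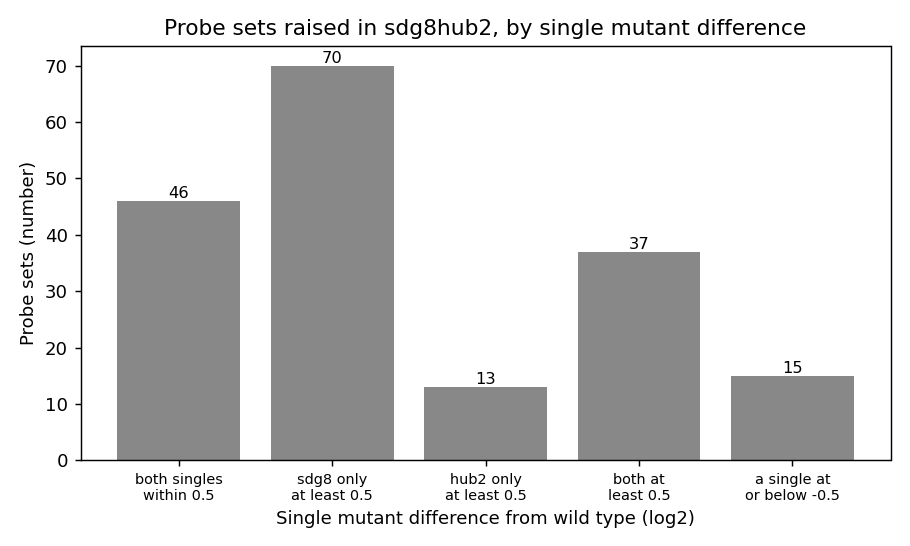
Number of probe sets (vertical axis) among the 181 raised in sdg8hub2, by the difference of the single mutants from wild type (horizontal axis, log2). The 46 with both single mutants within 0.5 hold the 44 members, and the tallest bar is the 70 with sdg8 alone raised.

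Close to the limit, the probe sets just inside the difference of 1 were 257679_at, at 1.001, and the one shared by AT1G53890 and AT1G53870, at 1.003. Just outside were AT3G02480, at 0.993, and 256832_at, at 0.951. The median SD within sdg8hub2 was 0.14 over the members and 0.19 over all probe sets tested, and in wild type it was 0.18 and 0.17. Replicates 1, 2 and 3 of sdg8hub2 were the highest for 13, 17 and 14 members, and without wild type replicate 3 the rule kept 29 of the 44. Their median heights above wild type were 1.17, 1.28 and 1.26.

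Position was not used by the rule. Of the 27 named members found in the RefSeq gene table, 12 lie on chromosome 1, or 44.4%, where 25.7% of all named probe sets lie, and 4, 3, 3 and 5 lie on chromosomes 2, 3, 4 and 5. No test was made of this share. No 2 members are direct neighbours among protein-coding genes, and no member gene is read by a further named probe set. Of the genes next to a member, 13 were measured and passed the filter, and their median difference in sdg8hub2 was 0.03, beside -0.05 over all probe sets tested. Among them 1 rose and 1 fell, 7.69% each, beside 8.26% and 10.8% of all probe sets tested.

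The neighbour that rose was AT5G60260, next to AT5G60250. It had 6.77, 7.02 and 6.87 in wild type, 6.11, 6.60 and 7.16 in sdg8, 7.20, 6.29 and 7.05 in hub2, and 7.53, 7.79 and 8.17 in sdg8hub2. All 3 double mutant arrays lay above the other 9, and the difference from wild type was 0.94 (SE 0.27, limma adjusted p = 0.0148), with sdg8 at -0.27 and hub2 at -0.04. It did not pass without wild type replicate 1 (limma adjusted p = 0.0594) or sdg8hub2 replicate 3 (0.0862), nor with no filter (0.0876) or no variance trend (0.0614), and its adjusted p ran from 0.0018 to 0.0876 over 22 alternatives. AT5G60240, on the other side of AT5G60250, had a difference of -0.35 that did not pass. The neighbour that fell was AT5G55610, next to AT5G55620, with a difference of -0.30 (SE 0.10, limma adjusted p = 0.0455), which was called in 12 of 23 alternatives, over which its adjusted p ran from 0.0266 to 0.159. It was not called when any 1 of the wild-type or sdg8hub2 arrays was left out, nor without hub2 replicate 1 or 3.

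**Figure D5:**
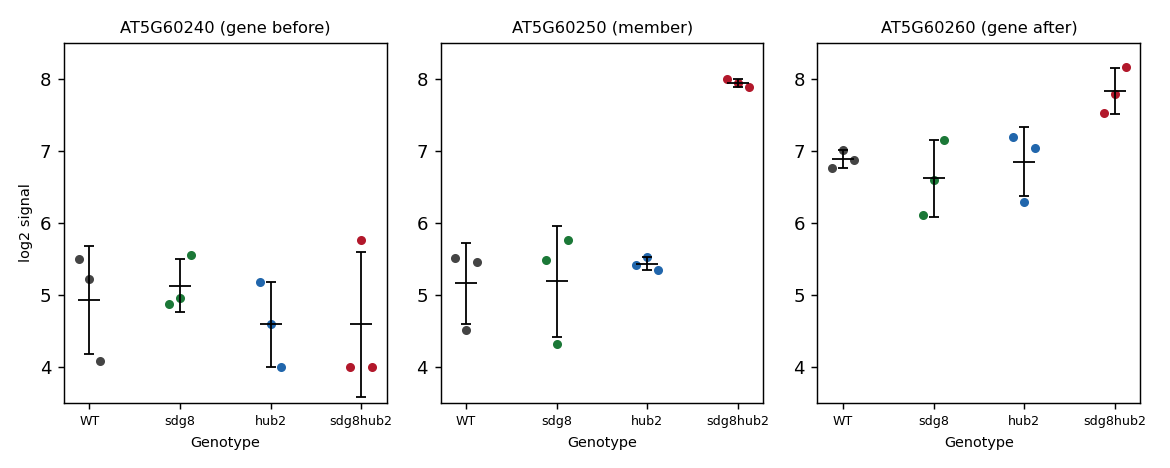
Log2 signal (vertical axis) by genotype (WT, wild type) for AT5G60250 and the genes before and after it in the RefSeq gene order, with points for the 3 arrays and bars for mean and SD. The sdg8hub2 arrays stand apart for AT5G60250 and AT5G60260, by 2.79 and 0.94 above the wild-type mean, while those of AT5G60240 overlap the other genotypes.

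The autophagy list, found by gene name, had 11 measured genes, mostly of the ATG8 family, and no member. In sdg8hub2 2 of them were called higher by limma, or 18.2%, and 0 lower, beside 8.26% and 10.8% of all probe sets tested. ATG8E, which encodes a protein of the autophagosome membrane, rose by 0.59 (limma adjusted p = 0.000465), from 11.05 ± 0.18 to 11.64 ± 0.09 (SD, n = 3), less than the rule demands. ATG8B had a difference of 0.32, ATG8G one of -0.14 and ATG8H one of -0.44, and none of the 3 passed. The other called gene, ATG8C, named after its value was seen, rose by 0.30 (limma adjusted p = 0.0361). The list median of 0.03 lay close to that of all probe sets. The remaining lists held no member.

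For the lists that follow, the shares over all probe sets tested were 8.26% higher and 10.8% lower. Of 12 glutathione transferase genes, whose products attach glutathione to other compounds, 4 rose and 2 fell, or 33.3% and 16.7%. GSTU25 rose by 2.08 (limma adjusted p = 1.26e-12), and it was raised in sdg8 by 1.94 and in hub2 by 0.77 as well. GSTU23 rose by 1.26 (limma adjusted p = 0.0156), while GSTU28 fell by 0.87 (limma adjusted p = 0.0119) and GSTU26 fell by 0.83 (limma adjusted p = 0.00462). Of 15 cytochrome P450 genes, which encode oxygenases, 0 rose and 5 fell, or 33.3%. Found by gene name, they are mostly of the CYP71B subfamily, as are all 5 that fell, so the share does not stand for the whole family. CYP71B22 was at -1.41 (limma adjusted p = 0.0492) and CYP71B37 at -1.34 (limma adjusted p = 0.0381). CYP78A9 at 0.51 and CYP71B26 at 0.13 did not pass. Of 17 MADS genes 1 rose and 3 fell, or 5.88% and 17.6%. AGL16 was at 0.86 (limma adjusted p = 2.59e-05) and AGL65 at -0.97 (limma adjusted p = 0.0233), and AGL19 and AGL21 at 0.51 and -0.81 did not pass. Of 14 genes of the F-box and ubiquitin ligase list 1 rose and 3 fell, or 7.14% and 21.4%. SK18 was at 0.63 (limma adjusted p = 0.00156), PUB24 at -1.0 (limma adjusted p = 0.00741) and ATL63 at -0.76 (limma adjusted p = 0.0165), and PUB25 at 0.45 did not pass. Of 6 histone genes 1 rose, or 16.7%, and 0 fell. HTB4, an H2B gene, rose by 0.61 (limma adjusted p = 0.00014), and HTB2, HTB11 and HTR12 at -0.26, -0.27 and -0.12 did not pass. Of 6 WRKY genes 0 rose and 1 fell, or 16.7%. WRKY6 fell by 0.81 (limma adjusted p = 0.00331), and WRKY47, ZAP1 and WRKY22 at 0.38, 0.25 and -0.16 did not pass. Besides GSTU25, some of these genes were also called in a single mutant against wild type. They were SK18 (0.76), WRKY6 (-0.97), GSTU28 (-0.93) and CYP71B37 (-1.36) in sdg8, and HTB4 (0.47) in hub2. GSTU23, GSTU26, CYP71B22, AGL16, AGL65, PUB24 and ATL63 were called in neither single mutant. The single genes of the NAC, DNA damage and MATE lists did not pass. The name patterns for the ERF and DREB, MYB and receptor kinase lists matched no gene name in the annotation used, so these families were not assessed. CYP71B22 and CYP71B37 did not pass when any 1 wild-type array was left out, nor without sdg8hub2 replicate 1 or 2 for the first and replicate 3 for the second, and over their alternatives the adjusted p ran from 0.0224 to 0.242 and from 0.019 to 0.193.

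As a check of the tissue, the leaf markers RCA, LHCB4.1, LHCB4.2 and LHCB4.3, genes of the photosynthetic apparatus, were summed. The sums were 44500 to 50100 intensity units in wild type and 46400 to 47600 in sdg8hub2. None of the 4 was called between these genotypes, beside 8.26% of all probe sets tested called higher and 10.8% lower. They were higher in both single mutants, 52900 to 61900 in sdg8 and 51800 to 56500 in hub2. Against wild type, RCA (0.30) and LHCB4.1 (0.36) were called higher and LHCB4.2 (-0.41) lower in sdg8. In hub2 LHCB4.2 (0.82) was called higher. The shares of all probe sets called in the single mutants are not given here, so nothing is read from the number of these calls. As a measure of RNA quality, the log2 difference between the 3' and 5' control probe sets of GAPDH was 0.35 to 0.56 in sdg8hub2 and 0.59 to 0.84 in wild type, without overlap, and 0.52 to 0.80 in sdg8 and 0.58 to 1.66 in hub2, while a second GAPDH pair and both actin pairs overlapped between these genotypes. The GAPDH signal itself was higher in sdg8hub2. Its 5' probe set read 6170 to 6530 intensity units there and 4050 to 4230 in wild type, and its 3' probe set 8090 to 9270 and 6210 to 7280. Neither the part of RNA quality in the GAPDH difference nor its part in the levels of the members was tested.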

How the data were processed

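Per the submitters' processing notes the arrays were processed with MAS5 and the affy package, versions not given in the sources used here. The labels' protocols name an Affymetrix labelling kit and, in another field, Agilent instructions, which was not settled here. What the authors deposited is linear intensity per probe set, whose mean after trimming 2% at each end was 500 on all 12 arrays. Deposited intensities under 16 were raised to 16, and log2 values were taken and averaged over the 3 arrays of a genotype. Detection calls were not used here. The number of arrays limits the precision.

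In limma 3.58.1 (R 4.3.3) a model with 1 mean per genotype and an intensity trend was run on the 12 arrays, over the 18196 probe sets above the 20th percentile of mean signal (25.0 intensity units). P-values are two-sided, adjusted by the Benjamini-Hochberg method and called at 0.05. The fit was tested on simulated data.

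Names came from the platform annotation and the RefSeq table of TAIR10.1. "Named" members are those with 1 gene symbol, and all 28 are named in the text, with values on every array for the 12 with the largest difference and the 6 brightest, and the 5 largest unnamed members. Of a list with a called gene, members and the 2 highest and 2 lowest differences are named. Neighbours were taken among protein-coding genes. Lists were made by patterns over gene symbols and synonyms, so a list can hold only a part of a family. The heat shock, cell cycle, root and seed patterns matched names of other genes and were not used. Members and lists were chosen with earlier results of these data known. Promoter and protein sequences were not used here.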

Additional observations from a re-analysis of the deposited data

Results flagged for a closer look

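The effect of hub2 differed between the wild-type and the sdg8 background for 4 genes that are not members, by the interaction term in limma. They were picked by this call, and 3.23% of all 18196 probe sets tested had a positive interaction call. The share with a negative call, as for GSTU25, is not given here. Nothing is read from the number of these genes. AT5G60260, the neighbour of AT5G60250, had an interaction of 1.25 (SE 0.38, limma adjusted p = 0.0488), with a hub2 difference of -0.04 in the wild-type background and 1.21 in the sdg8 background, and it was called in 8 of 21 alternatives, over which the adjusted p ran from 0.015 to 0.182. ATG8B had an interaction of 0.97 (SE 0.18, limma adjusted p = 0.0012), with 0.11 and 1.08, and was called in 22 of 22 alternatives. WRKY47 had an interaction of 1.53 (SE 0.21, limma adjusted p = 2.72e-05), with -0.42 and 1.11, and was called in 22 of 22 alternatives. Both ATG8B and WRKY47 were lowered in sdg8, by 0.76 and 0.74 (limma adjusted p = 0.000159 and 0.000918). Their sdg8hub2 means lay 0.32 and 0.38 above wild type, not called, so 1.08 and 1.11 are counted from a lowered level. GSTU25 had one of -0.63 (SE 0.16, limma adjusted p = 0.0157), with 0.77 and 0.14, and was called in 18 of 22 alternatives, over which the adjusted p ran from 0.0105 to 0.0814. Groups of 3 arrays are too small for a check of single outlying arrays.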

How the results depend on the processing

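The rule found 42 probe sets with a floor at the 1st percentile, 64 with a floor at 64, 49 with quantile normalization, 50 with median centring and 46 with no condition on the order of the arrays, and it found 13 with a difference of at least 1.5 and 11 with single mutant differences under 0.25. With 1 array left out it found 36 to 52, of which 29 to 44 are members. Of the 44 members, 17 met the rule whichever array was left out, and 16 also under the other floors and scalings, among them AT5G60250, AT4G23680, AT5G56350, AT5G55620 and BZIP60. AT3G12900, AT1G73040, CCS and AT4G04940 met it in 7 of the 12 settings with 1 array left out. The differences of named members were positive under every floor, scaling and omission; they moved by over 1.5 times for MPC (1.89 to 1.04), 266680_s_at (3.09 to 1.28) and AT3G12900 (1.56 to 0.95) with a floor at 64. In sdg8hub2 against wild type 3476 probe sets were called, 2564 to 3745 with 1 array left out, and the share of higher calls, 43.2%, was 54.3% with median centring and 49.1% with quantile normalization. Arrays that share a replicate number did not deviate together (median correlation 0.00199, 0 of 18 pairs above 0.1). With the replicate block 3367 probe sets were called, 1455 higher and 1912 lower, and 1 neighbour and 15 list genes were called higher and 1 and 20 lower. ATG8H was called lower there (limma adjusted p = 0.0275, and 0.0183 to 0.291 over its alternatives). The count of neighbours called higher was 0 with no filter, with a filter at the 50th percentile and without the variance trend, and 0 to 1 with 1 array left out. The count called lower was 0 with quantile normalization, median centring, no variance trend and with neighbours of any biotype (chosen after the data were seen), 2 with a filter at the 50th percentile, array weights or only the groups compared, and 0 to 1 with 1 array left out. The lists had 15 genes higher and 20 lower (13 lower with the filter at the 50th percentile), and 13 to 17 and 12 to 20 with 1 array left out (12 lower without wild type replicate 1 or 2, and 13 without wild type replicate 3 or sdg8hub2 replicate 1). SAG101, at 0.33 and not called, turned to -0.02 without sdg8hub2 replicate 2, within a range of -0.02 to 0.57 with 1 array left out, and HTR12, at -0.12 and not called, turned to 0.03 without sdg8hub2 replicate 3, within -0.25 to 0.03. NDB2 was not called without wild type replicate 3 (limma adjusted p = 0.0534, and 0.00311 to 0.0534 over its alternatives). Calls were lost for GSTU23 without wild type replicate 2 or 3 or sdg8hub2 replicate 3 (0.0585 to 0.0736), GSTU28 without wild type replicate 2 or sdg8hub2 replicate 1 (0.0516 and 0.0793), ATL63 without wild type replicate 2 or 3 (0.0615 and 0.0589), and AGL65 without wild type replicate 2 or 3 or sdg8hub2 replicate 1 (0.06 to 0.0811), all limma adjusted p. AGL65 was at -0.25 and CYP71B22 at -0.34 with a floor at 64, and CYP71B37 fell by at least 0.26 over its alternatives. The causes were not tested. Other probe sets of the member genes gave no value under any setting. Dim signals limit the values of the 19 members with wild-type means under 7.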
